A study of Homo sapiens with 8 samples.

Results

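The genes described here are 41 genes of glycolysis and of the response to low oxygen, taken by symbol from a table of 24462 genes and split by role into 18 glycolytic enzyme genes, 9 transporter and regulator genes and 14 hypoxia response genes. RNA sequencing measured them in HepG2, an established human line from a liver tumour, in 4 libraries of cells with EDN1 overexpression and 4 libraries of cells labelled mock, all grown in DMEM with serum, penicillin, streptomycin and Fungizone and with no other treatment. EDN1 is the gene of endothelin-1, a peptide hormone that constricts vessels. The labels do not say how EDN1 was introduced, what the mock cells received, or whether replicate libraries are separate cultures. The p-values therefore reflect the scatter among these 8 libraries, which may be technical.

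Glycolysis breaks glucose down to pyruvate in the cytosol, and lactate dehydrogenase turns pyruvate into lactate when glycolysis outpaces the mitochondria. Most steps have several isoenzymes, and tumour lines often carry the hexokinase, pyruvate kinase and glucose transporter forms that normal hepatocytes hold at a low level. When oxygen is scarce, prolyl hydroxylases stop marking HIF-1alpha for destruction, and the stabilised factor binds a short core motif near its target genes, among them many glycolytic enzyme genes and the angiogenic factor gene VEGFA.

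EDN1 itself had 228, 259, 418 and 549 CPM (each count relative to its library's TMM-scaled total) in EDN1 overexpression 1 to 4, against 2.26, 1.11, 1.04 and 1.38 CPM in mock 1 to 4, so each library matched its label. Total counts ran from 8571252 to 11686180 in EDN1 overexpression and from 8409173 to 14932385 in mock. Libraries of 1 group differed by more than sampling noise, since chi-square divided by its degrees of freedom was 15.2 to 92.7 for pairs within a group. They also formed clusters that cut across the groups, and no label gives a batch. By average linkage over the tested genes other than the 41, EDN1 3, EDN1 4 and mock 4 clustered away from the other libraries; these are called the second and the first library set. The second set holds only 1 mock library, so a fold change within it compares EDN1 overexpression with a single mock sample. By complete linkage EDN1 4, mock 2 and mock 4 stood apart instead. All 9 hepatocyte markers, ALB and APOB among them, were detected and summed to 5350 to 7535 CPM in EDN1 overexpression and 5861 to 8015 CPM in mock, most of it APOB. Of the 9, 5 had a fold change below 0 and 4 above. AFP averaged 594 ± 295 CPM in EDN1 overexpression and 1027 ± 375 CPM in mock (SD, n = 4 each). Its log2 fold change was -0.79 (SE 0.35), and the groups overlapped. Endothelial markers summed to at most 0.923 CPM in EDN1 overexpression and 0.552 CPM in mock, and fibroblast markers to at most 7.48 CPM and 8.80 CPM. Blood and immune markers summed to 371 to 828 CPM in EDN1 overexpression and 410 to 807 CPM in mock, most of it LYZ, while CD3E had no count and PTPRC at most 1 count in a library.

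The promoters of 4 hypoxia response genes are printed because HIF is known to act through a short core, and because these genes varied widely between libraries. The 4 were not taken by rank of spread, and each holds a match. MXI1, which varied more than P4HA1 and ANKRD37 and has a window without a match, is not printed. EGLN1, KDM3A and ADM, which varied less, hold matches too and are not printed. A link between a match and the spread was not tested. The HIF core was searched as ACGTG and GCGTG on both strands in the 250 bases before each gene start in RefSeq's promoter table (GRCh38.p14), where CACGTG holds a match on each strand. The table held 36 of the 41 genes and not BNIP3L, NDRG1, SLC16A1, SLC2A3 or VEGFA. A match was in 12 of 15 windows of hypoxia response genes (80.0%), in 8 of 13 windows of transporter and regulator genes (61.5%), in 20 of 39 windows of glycolytic enzyme genes (51.3%) and in 43.2% of all 35116 windows. Counted by gene, at least 1 window held a match for 10 of 11 hypoxia response genes, 5 of 7 transporter and regulator genes, 15 of 18 glycolytic enzyme genes and 12945 of all 27305 genes. Genes with several starts have several windows, so windows are not independent, and a match describes letters, not a bound site. The matches are in capitals. The CA9 match begins at position -18, where -1 is the base before the start, that of P4HA1 at -86, that of ANGPTL4 at -234, and the first bases of the ANKRD37 matches lie from -162 to -143.
ANKRD37, chr4:185396591-185396840, plus strand: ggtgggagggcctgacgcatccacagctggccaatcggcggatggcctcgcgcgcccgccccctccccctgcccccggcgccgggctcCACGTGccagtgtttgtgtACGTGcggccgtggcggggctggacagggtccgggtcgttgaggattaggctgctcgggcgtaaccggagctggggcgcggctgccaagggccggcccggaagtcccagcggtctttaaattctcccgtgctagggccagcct
CA9, chr9:35673678-35673927, plus strand: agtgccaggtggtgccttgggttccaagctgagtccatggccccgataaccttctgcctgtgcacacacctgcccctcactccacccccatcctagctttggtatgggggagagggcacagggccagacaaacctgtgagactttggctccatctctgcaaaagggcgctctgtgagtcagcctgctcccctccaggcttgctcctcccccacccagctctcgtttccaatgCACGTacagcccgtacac
P4HA1, chr10:73096867-73097116, minus strand: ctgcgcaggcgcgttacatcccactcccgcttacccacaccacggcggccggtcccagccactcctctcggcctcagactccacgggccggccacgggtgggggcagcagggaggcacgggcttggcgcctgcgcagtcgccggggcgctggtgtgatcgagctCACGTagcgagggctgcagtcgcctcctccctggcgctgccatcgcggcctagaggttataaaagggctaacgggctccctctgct
ANGPTL4, chr19:8363905-8364154, plus strand: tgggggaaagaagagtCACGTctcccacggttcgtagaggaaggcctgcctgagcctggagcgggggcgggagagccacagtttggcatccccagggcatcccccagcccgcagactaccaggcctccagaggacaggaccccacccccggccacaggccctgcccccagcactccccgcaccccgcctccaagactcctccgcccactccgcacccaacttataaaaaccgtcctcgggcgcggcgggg

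None of the glycolysis and hypoxia response genes passed the test between EDN1 overexpression and mock. Of the 41 genes, 39 passed the filter on low counts, and 0 of these reached an adjusted p under 0.05 in either direction by the quasi-likelihood test of edgeR. Over all 12577 genes tested, 1 was called (0.00795%), which was EDN1. In bulk RNA, fewer cells with a transcript and less of it per cell cannot be told apart. The smallest Benjamini-Hochberg adjusted p among the 39 was 0.9999 (edgeR). Without adjustment, 2 of the 39 had a p under 0.05, VEGFA and ANKRD37, both lower in EDN1 overexpression, against 2.85% of all genes tested in either direction and 0.827% in the lower direction. DESeq2 and limma voom also called 0 of the 39 and gave the same 2 at an unadjusted p under 0.05. In none of the 39 did the 4 libraries of one group lie apart from the 4 of the other, against 2.04% of all genes tested in either direction and 0.668% in the lower direction. Of the 39, 22 had a fold change below 0, against 49.7% of all genes tested. The median log2 fold change was 0.0056 for the glycolytic enzyme genes, -0.063 for the transporter and regulator genes and -0.20 for the hypoxia response genes, beside 0.00099 for all genes tested.

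**Figure D1:**
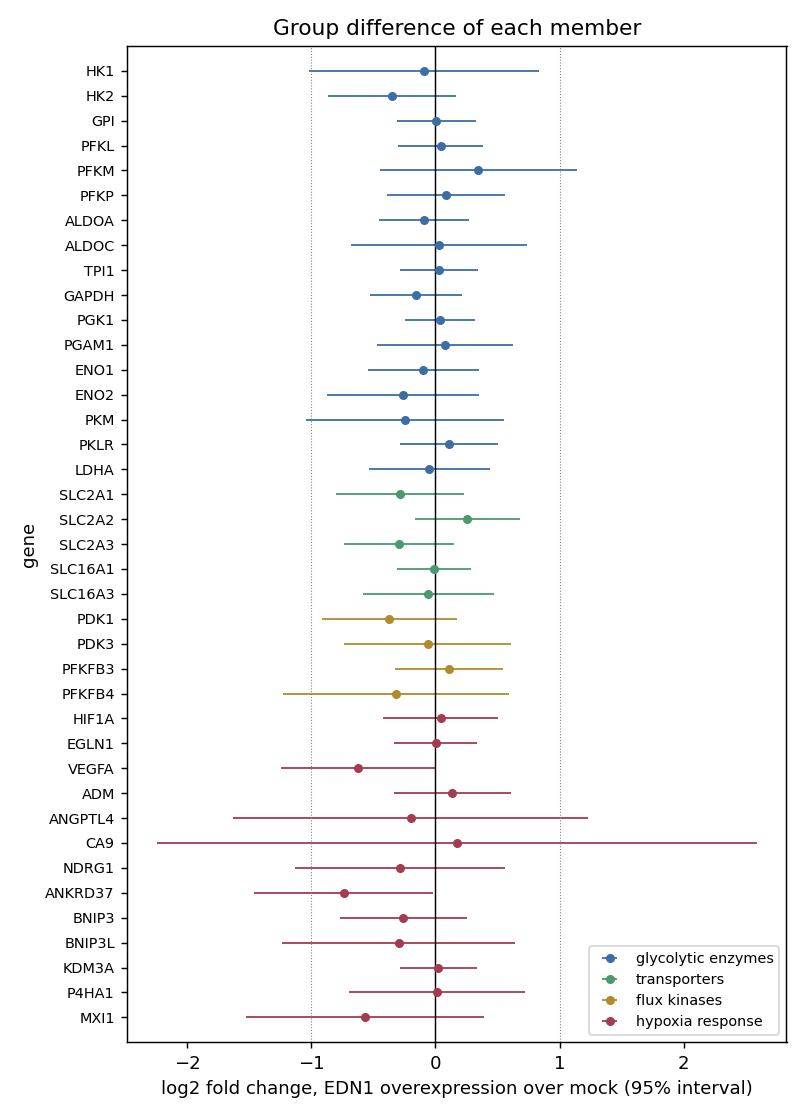
Log2 fold change of each of the 39 tested genes (EDN1 overexpression over mock, x axis) with its 95% interval, coloured by role, with dotted lines at 2-fold in either direction. The intervals of VEGFA and ANKRD37 end just below 0, and that of CA9 runs from -2.24 to 2.59.

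The glycolytic enzyme genes lay on both sides of no change. Of the 17 tested, 9 had a fold change above 0 and 8 below, from -0.35 for HK2 to 0.34 for PFKM on the log2 scale. For 14 of the 17 the whole 95% interval stayed inside a 2-fold change (82.4%), against 79.4% of all genes tested. Among genes tested with a mean of at least 5 CPM it was 89.2%.

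Hexokinases trap glucose in the cell as glucose 6-phosphate, and HK2 is the inducible form of muscle, fat and tumours. HK2 had 109, 153, 99.0 and 131 CPM in EDN1 overexpression 1 to 4, against 215, 109, 177 and 124 CPM in mock 1 to 4. The 2 highest values were in mock 1 and mock 3, and the groups overlapped, and the log2 fold change was -0.35 (SE 0.23). HK1, the housekeeping form, ran from 6.92 to 20.6 CPM in EDN1 overexpression and from 6.72 to 19.9 CPM in mock, a wider spread than its group difference of -0.093 on the log2 scale. HK1 was high in EDN1 4, mock 2 and mock 4, the libraries that stood apart by complete linkage. Over all libraries the log2 ratio of HK2 to HK1 counts ran from 2.67 to 4.46 in EDN1 overexpression and from 2.46 to 4.72 in mock. HKDC1, a further hexokinase gene, averaged 205 ± 48.9 CPM in EDN1 overexpression and 203 ± 94.9 CPM in mock (SD, n = 4 each).

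The next steps split and rearrange the sugar. GPI, which converts glucose 6-phosphate to fructose 6-phosphate, had a log2 fold change of 0.0056 (SE 0.14). Phosphofructokinase, the committing step, was carried mainly by PFKL, the liver form, with 59.3 to 76.0 CPM in EDN1 overexpression and 58.8 to 80.9 CPM in mock, and by PFKP, the platelet form, with 29.8 to 52.4 CPM and 29.3 to 45.5 CPM. The muscle form PFKM stayed at or below 1.81 CPM in every library, where its counts were 6 to 20. Its log2 fold change of 0.34 (SE 0.36), the highest of the 39, therefore rested on few reads. ALDOA, the main aldolase here, ran from 410 to 569 CPM in EDN1 overexpression and from 436 to 603 CPM in mock. ALDOC, a form known from brain, stayed at or below 8.39 CPM.

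The later steps pay back ATP. GAPDH, which makes the NADH of glycolysis, had 941, 1243, 1079 and 902 CPM in EDN1 overexpression 1 to 4, against 924, 1235, 1206 and 1277 CPM in mock 1 to 4. Its log2 fold change was -0.16 (SE 0.17, 95% interval -0.53 to 0.22), and both groups spanned nearly the same range. PGK1, a kinase that makes ATP directly, was the steadiest of the 39, with a within-group SD of 0.10 on the log2 scale, 132.5 to 156 CPM in EDN1 overexpression and 128 to 147 CPM in mock. TPI1, which interconverts the triose phosphates, had a log2 fold change of 0.027 (SE 0.14). PGAM1, a mutase, ran from 67.3 to 162 CPM in EDN1 overexpression and from 82.3 to 124 CPM in mock, lowest in both groups in library 4. ENO1, the common enolase, ran the other way, with its highest value of each group in EDN1 4 (1049 CPM) and mock 4 (1146 CPM).

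Pyruvate kinase makes the last ATP of the pathway. PKM, whose splice forms these counts do not separate, had 326, 288, 153 and 124 CPM in EDN1 overexpression 1 to 4, against 254, 390, 275 and 136 CPM in mock 1 to 4. The low values were EDN1 3, EDN1 4 and mock 4, the second library set, and the log2 fold change of -0.25 (SE 0.36) was 0.00091 within the first set alone and 0.0071 within the second, where mock is 1 library. PKLR, the liver form and a target of the glucose-sensing factor ChREBP, had 15.5, 17.1, 12.8 and 12.2 CPM in EDN1 overexpression 1 to 4, against 12.4, 15.3, 13.7 and 12.2 CPM in mock 1 to 4. EDN1 1 and EDN1 2 lay above the mock range and EDN1 3 and EDN1 4 within it, and the log2 fold change was 0.11 (SE 0.18). PKM averaged 222 ± 99.2 CPM in EDN1 overexpression and 264 ± 104 CPM in mock (SD, n = 4 each). PKLR averaged 14.4 ± 2.29 CPM in EDN1 overexpression and 13.4 ± 1.45 CPM in mock (SD, n = 4 each).

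Lactate dehydrogenase reads were nearly all from LDHA. LDHA, which favours the making of lactate, had 421, 426, 279 and 255 CPM in EDN1 overexpression 1 to 4, against 351, 412, 407 and 261 CPM in mock 1 to 4. As for PKM, the low values were in the second library set. The log2 fold change was -0.049 (SE 0.22), against 0.12 in the first set alone and 0.025 in the second, with its 1 mock library. LDHB, the form of heart and other oxidative tissues, was not tested: it had 0, 2, 1 and 0 counts in EDN1 overexpression 1 to 4 and 0, 0, 0 and 4 counts in mock 1 to 4. A count of 0 allows up to 3 counts, or 0.207 to 0.370 CPM depending on the library, and such limits cover counting error only. ENO2, the enolase of neurons and a hypoxia target, was also low in the second library set, at 23.4 and 32.0 CPM in EDN1 3 and EDN1 4 and 27.5 CPM in mock 4, while the other libraries ran from 45.03 to 46.3 CPM in EDN1 overexpression and from 39.3 to 61.3 CPM in mock.

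Among the glucose transporters, SLC2A1 (GLUT1), the basal transporter of most cells, had 858, 738, 598 and 408 CPM in EDN1 overexpression 1 to 4, against 965, 732, 854 and 626 CPM in mock 1 to 4. The lowest value was EDN1 4 and the highest mock 1, with a log2 fold change of -0.29 (SE 0.23) that was -0.12 to -0.45 when single libraries were left out. SLC2A2 (GLUT2), the transporter of normal hepatocytes, had 9.60, 7.03, 10.7 and 8.20 CPM in EDN1 overexpression 1 to 4, against 7.41, 6.92, 7.998 and 7.46 CPM in mock 1 to 4. EDN1 1, EDN1 3 and EDN1 4 lay above the mock range and EDN1 2 within it, and the log2 fold change was 0.26 (SE 0.19). Per kilobase, SLC2A1 averaged 177 ± 52.6 CPM per kilobase in EDN1 overexpression and 216 ± 40.1 in mock, and SLC2A2 averaged 2.58 ± 0.465 and 2.16 ± 0.129 (SD, n = 4 each). SLC2A3 (GLUT3), a high-affinity transporter, was close to SLC2A1, at 666 ± 137 CPM in EDN1 overexpression and 816 ± 165 CPM in mock. Its log2 fold change was -0.29 (SE 0.20). The lactate carriers SLC16A1 (MCT1) and SLC16A3 (MCT4, a hypoxia target) differed on the log2 scale by -0.015 (SE 0.13) and -0.057 (SE 0.24).

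Kinases that set the pace of glycolysis did not pass the test either. PDK1, a HIF target that keeps pyruvate out of the mitochondria by switching off pyruvate dehydrogenase, had 13.3, 20.9, 10.4 and 15.2 CPM in EDN1 overexpression 1 to 4, against 13.9, 21.0, 24.3 and 18.2 CPM in mock 1 to 4. EDN1 1 and EDN1 3 lay below all mock libraries and the other two within their range, and the log2 fold change was -0.37 (SE 0.25). PFKFB3, which makes the activator of phosphofructokinase, had 35.1, 24.3, 31.4 and 20.1 CPM in EDN1 overexpression 1 to 4, against 29.1, 27.1, 24.3 and 22.4 CPM in mock 1 to 4. The EDN1 overexpression values lay on both sides of the mock range. PFKFB4 differed by -0.32 (SE 0.41) on the log2 scale, from 24 to 38 counts in EDN1 overexpression and 18 to 57 counts in mock, and PDK3 by -0.063 (SE 0.31).

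In each of 9 pairs of related genes compared as a count ratio within each library, the groups overlapped. The largest mean difference was for SLC2A1 to SLC2A2, with a log2 ratio of 6.16 ± 0.519 in EDN1 overexpression and 6.72 ± 0.260 in mock (SD, n = 4 each), and EDN1 1 and EDN1 2 lay within the mock range while EDN1 3 and EDN1 4 lay below it. PKLR to PKM had a log2 ratio of -3.85 ± 0.478 in EDN1 overexpression and -4.21 ± 0.506 in mock. ENO2 to ENO1 fell into the library sets rather than the groups, at -5.35 and -5.03 in EDN1 3 and EDN1 4 and -5.38 in mock 4, against -3.91 and -3.98 in the other EDN1 overexpression libraries and -4.20 to -3.93 in the other mock libraries.

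**Figure D2:**
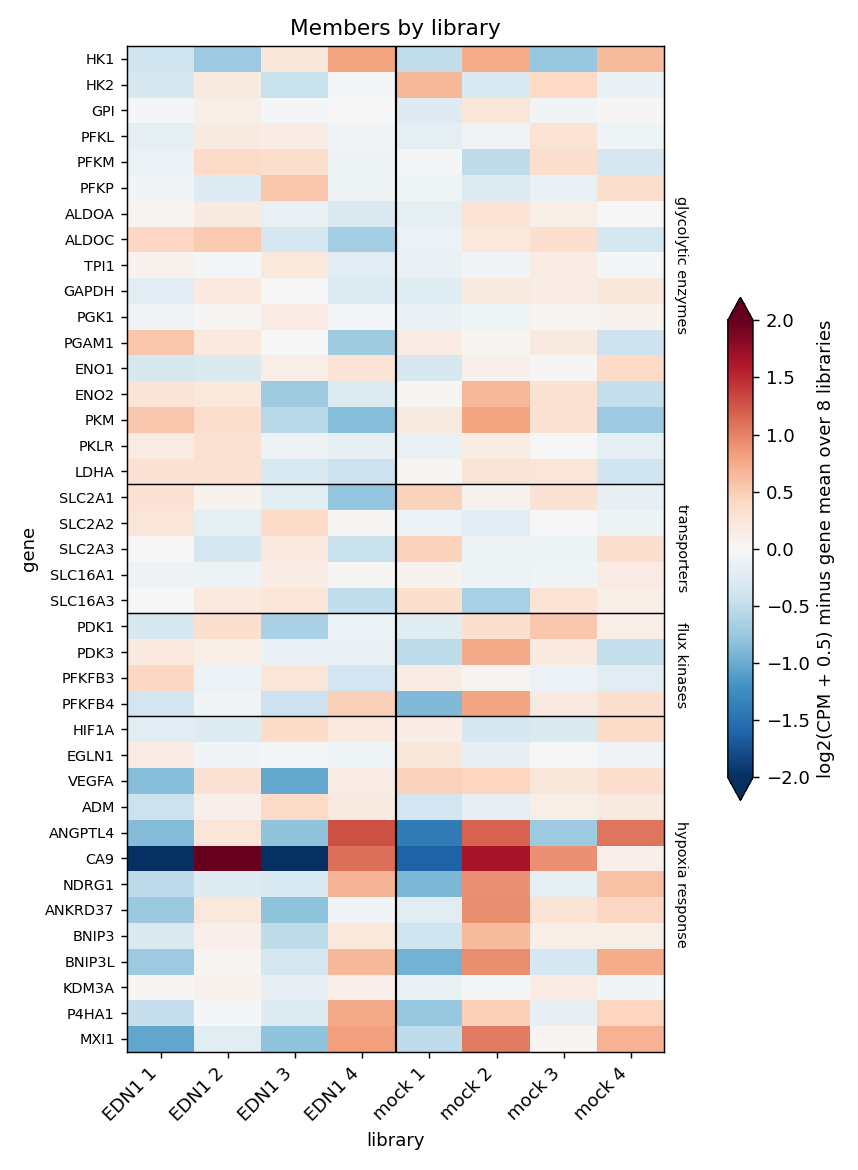
Log2(CPM + 0.5) of the 39 tested genes minus each gene's mean over the 8 libraries, by role (rows) and library (columns, EDN1 overexpression left of the line). The colour scale ends at 2 in either direction, which CA9 passes. PKM, LDHA and ENO2 are low in EDN1 3, EDN1 4 and mock 4, and ANGPTL4, NDRG1, BNIP3L, P4HA1 and MXI1 are high in EDN1 4, mock 2 and mock 4.

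The hypoxia response genes spread widely within both groups. Of the 13 tested, 7 had a fold change below 0 and 6 above. Their median of -0.20 was 0.0016 without mock 2 and -0.41 without mock 1, and 0.064 with the complete linkage set as a term. For 6 of the 13 the whole 95% interval stayed inside a 2-fold change (46.2%), against 79.4% of all genes tested and 89.2% of those with a mean of at least 5 CPM.

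HIF1A, which encodes the oxygen-regulated factor itself and is controlled mainly as a protein, had 64.9, 63.3, 97.5 and 86.7 CPM in EDN1 overexpression 1 to 4, against 83.6, 60.3, 61.9 and 97.7 CPM in mock 1 to 4. The groups overlapped throughout, with a log2 fold change of 0.040 (SE 0.21), and an antisense gene, HIF1A-AS2, overlaps it. HIF1A-AS2 had nearly the same values, 61.7, 59.9, 87.8 and 80.1 CPM in EDN1 overexpression 1 to 4. In mock 1 to 4 it had 78.5, 56.7, 58.7 and 89.0 CPM. Whether the same reads were counted for both genes was not tested. The other genes of the HIF pathway, described further on, include HIF1A-AS2. EGLN1, the main prolyl hydroxylase gene, ran from 23.0 to 27.5 CPM in EDN1 overexpression and from 21.6 to 28.6 CPM in mock. EGLN3, the strongly hypoxia-induced hydroxylase gene, was not tested, with 0, 2, 1 and 1 counts in EDN1 overexpression 1 to 4 and 0, 4, 4 and 5 counts in mock 1 to 4. Mock 2, mock 3 and mock 4 were just above the floor of 3 counts and the other libraries under it. These are too few counts to compare the groups.

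VEGFA, the chief angiogenic factor gene, had 87.4, 193, 77.4 and 175 CPM in EDN1 overexpression 1 to 4, against 218, 215, 186 and 201 CPM in mock 1 to 4. EDN1 1 and EDN1 3 were far below the lowest mock value and EDN1 4 just below it, while EDN1 2 lay within the mock range. The log2 fold change was -0.62 (SE 0.28, 95% interval -1.24 to -0.0016) and the Benjamini-Hochberg adjusted p was 0.9999 (edgeR). It was -0.43 without EDN1 3, -0.47 without EDN1 1 and -0.86 without EDN1 2, and -0.56 in the first library set alone and -0.68 in the second, which has 1 mock library. ANKRD37, an ankyrin repeat gene known as a direct HIF target, had 4.07, 8.28, 3.86 and 6.81 CPM in EDN1 overexpression 1 to 4, against 6.01, 13.96, 8.69 and 9.67 CPM in mock 1 to 4. EDN1 1 and EDN1 3 again lay below every mock library, and EDN1 2 and EDN1 4 overlapped the mock values. Its log2 fold change was -0.74 (SE 0.33, 95% interval -1.46 to -0.020), from 44 to 73 counts in EDN1 overexpression and 75 to 140 counts in mock, and it ran from -0.97 without EDN1 2 to -0.51 without mock 2. Leaving out any of EDN1 1, EDN1 3, mock 2, mock 3 or mock 4 left 0 of the 39 genes at an unadjusted p under 0.05, and so did the average linkage set as a term.

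**Figure D3:**
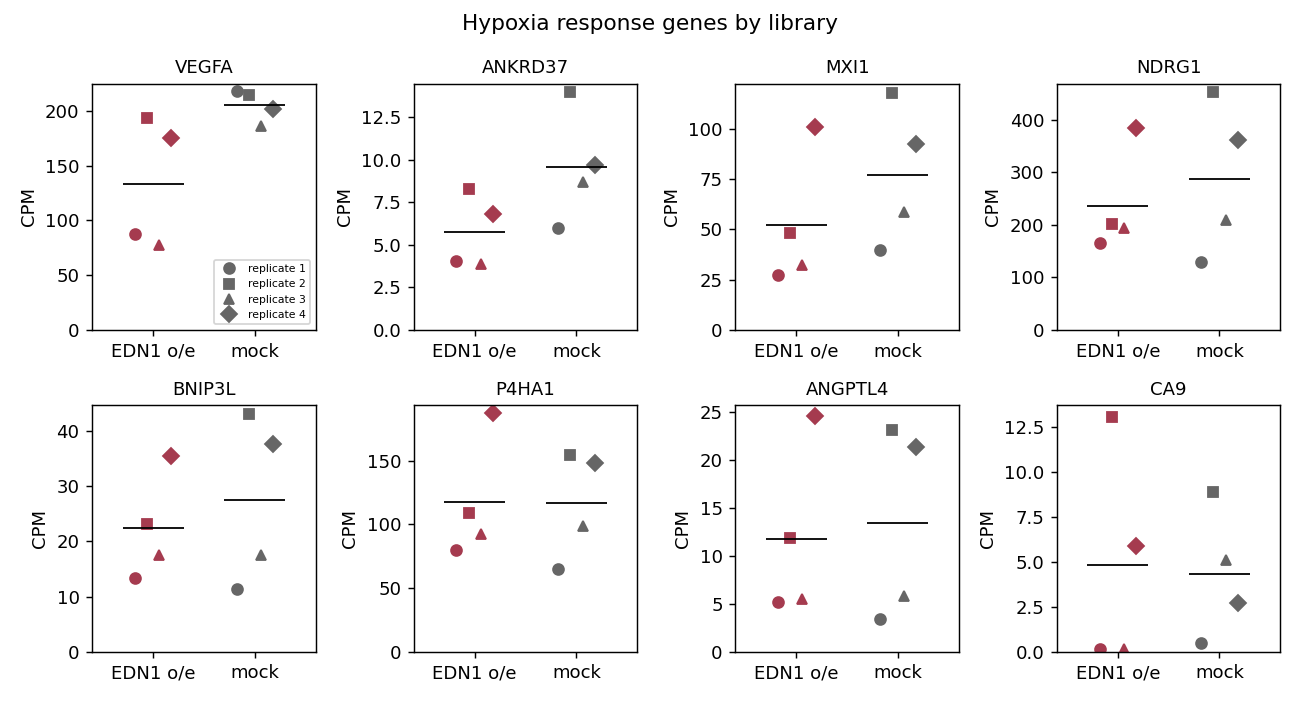
CPM of 8 hypoxia response genes in each library (y axis from 0), EDN1 overexpression left of mock, with replicate numbers as marker shapes and the group mean as a line. VEGFA is lowest in EDN1 1 and EDN1 3, and MXI1, NDRG1, BNIP3L, P4HA1 and ANGPTL4 are highest in EDN1 4, mock 2 and mock 4.

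Several HIF targets followed each other across the libraries. NDRG1, a stress-induced gene of the cytosol, had 166, 201, 194 and 384 CPM in EDN1 overexpression 1 to 4, against 129, 453, 210 and 361 CPM in mock 1 to 4. Its high values were EDN1 4, mock 2 and mock 4, each at least 361 CPM, with the other 5 libraries at or below 210 CPM. The log2 fold change was -0.29 (SE 0.38), which was 0.017 without mock 2 and -0.62 without EDN1 4.

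The same 3 libraries held the 3 highest values of MXI1, P4HA1, BNIP3L and ANGPTL4, which were picked for per-library values after these were seen. MXI1, an antagonist of MYC, had 27.3, 48.3, 32.2 and 100.7 CPM in EDN1 overexpression 1 to 4, against 39.6, 118, 58.4 and 92.4 CPM in mock 1 to 4. Its log2 fold change was -0.57 (SE 0.43), which was -0.29 without mock 2 and -1.10 without EDN1 4. P4HA1, a subunit of collagen prolyl hydroxylase, had 80.1, 109, 92.9 and 188 CPM in EDN1 overexpression 1 to 4, against 65.0, 155, 98.5 and 148 CPM in mock 1 to 4. The group means were nearly equal, and the log2 fold change was 0.0097 (SE 0.32). BNIP3L, a receptor for the removal of mitochondria, had 13.3, 23.3, 17.5 and 35.6 CPM in EDN1 overexpression 1 to 4, against 11.4, 43.1, 17.5 and 37.7 CPM in mock 1 to 4. ANGPTL4, a secreted inhibitor of lipoprotein lipase that also answers to PPARs and fasting, had 5.21, 11.8, 5.44 and 24.6 CPM in EDN1 overexpression 1 to 4, against 3.43, 23.1, 5.80 and 21.3 CPM in mock 1 to 4. Between its lowest and highest library ANGPTL4 differed 7.16-fold, MXI1 4.31-fold, BNIP3L 3.78-fold and NDRG1 3.52-fold, and in each of them the groups overlapped.

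CA9, the membrane carbonic anhydrase used as a marker of hypoxic tumour cells, varied most. It had 0.163, 13.0, 0.175 and 5.89 CPM in EDN1 overexpression 1 to 4, from 2, 115, 2 and 51 counts. In mock 1 to 4 it had 0.468, 8.89, 5.10 and 2.69 CPM, from 6, 72, 44 and 39 counts. EDN1 1 and EDN1 3 were under the floor of 3 counts and mock 1 had 6 counts, while the highest library of all was EDN1 2, so the group difference of 0.17 on the log2 scale had an SE of 1.09. Leaving out EDN1 2 gave -1.09 and leaving out mock 2 gave 0.81. BNIP3, a partner of BNIP3L, had 126, 164, 108 and 177 CPM in EDN1 overexpression 1 to 4, against 117, 237, 169 and 166 CPM in mock 1 to 4. The lowest value was EDN1 3 and the highest mock 2, and the log2 fold change was -0.26 (SE 0.23). ADM, a vasodilator peptide gene, and KDM3A, a histone demethylase gene, differed on the log2 scale by 0.14 (SE 0.21) and 0.024 (SE 0.14).

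**Figure D4:**
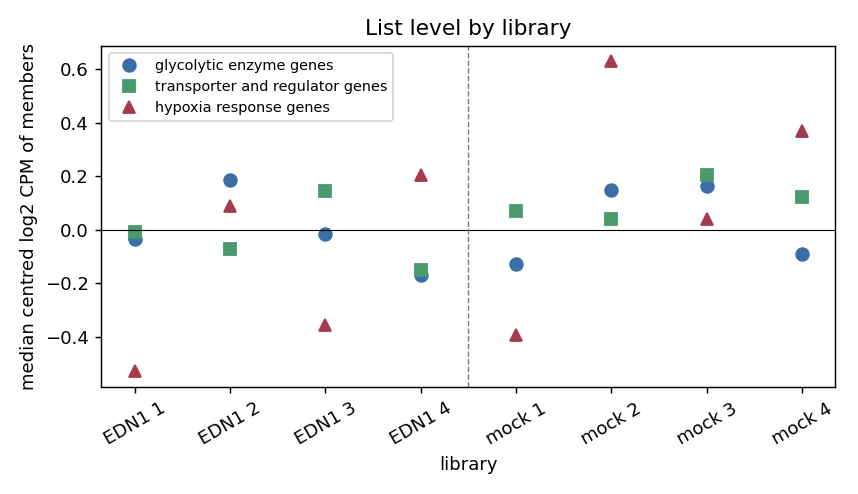
Median over each list of log2 CPM centred on each gene's mean (y axis) in every library, EDN1 overexpression left of the dashed line. The hypoxia response genes run from -0.53 in EDN1 1 to 0.63 in mock 2, the glycolytic enzyme genes from -0.17 in EDN1 4 to 0.19 in EDN1 2.

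As a list, the hypoxia response genes had a median centred level of -0.53, 0.088, -0.36 and 0.21 in EDN1 overexpression 1 to 4 and of -0.40, 0.63, 0.040 and 0.37 in mock 1 to 4 on the log2 scale. EDN1 1, EDN1 3 and mock 1 were low and mock 2 and mock 4 high. Mock 1 was the lowest mock library for 10 of the 13 genes and mock 2 the highest for 8, and EDN1 1 was the lowest EDN1 overexpression library for 7 and EDN1 4 the highest for 7. The glycolytic enzyme genes followed this order only in part. Their level was -0.034, 0.19, -0.015 and -0.17 in EDN1 overexpression 1 to 4 and -0.13, 0.15, 0.16 and -0.090 in mock 1 to 4. Both lists were below their mean in EDN1 1, EDN1 3 and mock 1 and above it in EDN1 2, mock 2 and mock 3. EDN1 4 and mock 4, where the hypoxia response list was above its mean, were below it for the enzymes. These counts describe 8 libraries, and what set the order of the libraries was not tested. LYZ, the main part of the blood and immune marker sum, had 351, 574, 367 and 792 CPM in EDN1 overexpression 1 to 4, against 394, 778, 668 and 686 CPM in mock 1 to 4. It too was lowest in EDN1 1, EDN1 3 and mock 1. The hepatocyte marker ALB had 343, 603, 347 and 880 CPM in EDN1 overexpression 1 to 4, against 366, 643, 542 and 585 CPM in mock 1 to 4, and was lowest in the same 3 libraries. The part of neither in the order was tested.

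The within-group SD was over 0.5 on the log2 scale for 7 of the 13 hypoxia response genes (53.8%), for 2 of the 17 glycolytic enzyme genes (11.8%, HK1 and PKM) and for 1 of the 9 transporter and regulator genes (PFKFB4). Among all genes tested it was over 0.5 for 20.5%, and among those with a mean of at least 5 CPM for 14.1%. The median SD was 0.51 for the hypoxia response genes, 0.32 for the glycolytic enzyme genes and 0.32 for all genes tested. The 34 other tested genes of the HIF pathway, described further on, had 5 genes over 0.5 (14.7%) and a median SD of 0.30. The 9 hepatocyte markers had 4 over 0.5 (44.4%) and a median SD of 0.46. EGLN1, KDM3A, ADM and HIF1A were at the steady end of the hypoxia list, with SDs of 0.15, 0.13, 0.32 and 0.32.

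**Figure D5:**
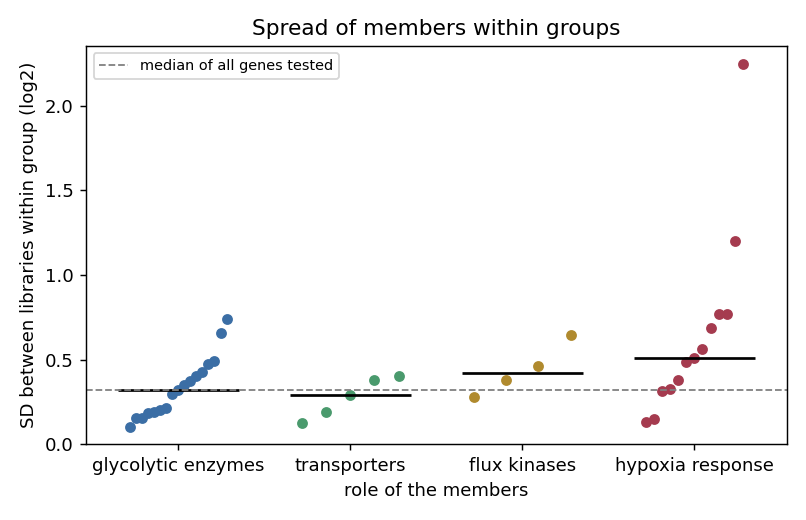
SD between libraries within a group on the log2 scale (y axis) for each of the 39 tested genes by role, with the median of each role as a line and the median of all genes tested dashed. CA9 (2.25) and ANGPTL4 (1.201) lie highest, and PGK1 (0.10) lowest.

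Further genes of glucose use and of the HIF pathway, listed with earlier results of these data known, held 0 called genes. Of 33 other genes of glucose use, 24 were tested, with a median log2 fold change of -0.0053. Of the 24, 0 were called in either direction by edgeR's quasi-likelihood test. An unadjusted p under 0.05 was reached by 1 of them, against 2.85% of all genes tested. That gene was ENO3, the enolase of muscle, with 18.8 ± 4.34 CPM in EDN1 overexpression and 12.5 ± 3.61 CPM in mock and a log2 fold change of 0.58 (SE 0.25). The next by unadjusted p were DLAT, a pyruvate dehydrogenase subunit gene (0.23, SE 0.14), and PFKFB2 (0.28, SE 0.19). TXNIP, a glucose-induced brake on glucose uptake named for its spread after its values were seen, averaged 245 ± 201 CPM in EDN1 overexpression and 329 ± 94.5 CPM in mock, and was also lowest in EDN1 1, EDN1 3 and mock 1. Of 39 other genes of the HIF pathway, 34 were tested, with a median of -0.0094. Of the 34, 0 were called and 1 had an unadjusted p under 0.05, against the same 2.85% of all genes tested. That gene was STC2, a secreted glycoprotein gene that also answers to amino acid stress, at -0.59 (SE 0.21). DDIT4, an inhibitor of mTORC1, differed by -0.49 (SE 0.26) on the log2 scale and EGLN2, a prolyl hydroxylase gene, by 0.34 (SE 0.19). EPAS1, which encodes HIF-2alpha, was the only gene of both lists whose groups did not overlap, against 2.04% of all genes tested. It had 98.2 ± 9.11 CPM in EDN1 overexpression and 114 ± 6.93 CPM in mock and a log2 fold change of -0.21 (SE 0.13). EPAS1 was named after its values were seen. EPO, the classic HIF target of hepatoma cells, averaged 7.22 ± 1.66 CPM in EDN1 overexpression and 7.05 ± 1.56 CPM in mock (SD, n = 4 each).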

How the data were processed

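Per the labels' protocols, libraries were made with a Lexogen Quant-Seq kit. The authors deposited 1 table of raw read counts per gene symbol, not normalized, with a gene length. Per the submitters' processing notes, the tools were Bowtie2 and edgeR, with no role or version, and the build hg19. How reads were counted (tool, strand, multiple hits) is not given in the sources used here. GENCODE names 147 pseudogenes of 16 of the 41 genes (62 of GAPDH and 39 of BNIP3) and genes on the opposite strand of 26, so such reads may be split or shared.

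Groups and replicate numbers come from the sample titles. Rows of 1 symbol were summed (25737 rows, 24462 genes); each of the 41 genes had 1 row. Total counts were 8409173 to 14932385 per library. Genes passing filterByExpr (minimum count 10) were scaled by TMM and tested by edgeR 4.0.16's quasi-likelihood test (R 4.3.3) with the group as the only term and Benjamini-Hochberg adjustment over all 12577 genes. SEs are the fold change over the square root of F. Alternatives were other scalings and filters, DESeq2 1.42.0, limma 3.58.1 voom, the replicate block, library sets, rows not summed, other thresholds and leaving out each library. The test was also run on simulated data, but how well it recovered small changes is not given here. Library clusters used 1 minus the correlation of gene-centred log2 CPM (prior count 2).

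Values in every library are given for genes with groups that do not overlap (0 genes), those with an unadjusted p under 0.05 and those chosen for their role; of each other list, the 3 smallest p. The 41 genes and all lists were chosen with earlier results of these data known.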

Additional observations from a re-analysis of the deposited data

How the results depend on the processing

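Every alternative run called 0 of the 39 tested genes at an adjusted p of 0.05, and EDN1 was called under each; DESeq2 called 3 genes in all, against 1 by edgeR, and an unadjusted p under 0.05 took in 359 genes, 2 of them among the 39. Replicate numbers were shared by the groups, and the sample titles do not say whether they pair the libraries. The deviations of same-numbered libraries had correlations of 0.48, 0.15, -0.15 and 0.53. Differently numbered libraries of the 2 groups were not correlated in this way. Pairing apart from the library clusters was therefore not tested. The main test took the libraries as unpaired, and the replicate block was run as an alternative. With the replicate block 1 gene was called, 550 genes had an unadjusted p under 0.05, and MXI1 joined ANKRD37 and VEGFA among them. The complete linkage set was added as a term after the data were seen; SLC2A1 was then the only one of the 39 at an unadjusted p under 0.05. The median of the transporter and regulator genes was -0.21 in the second library set alone and ran from -0.23 to -0.026 when single libraries were left out, and that of the hypoxia response genes ran from -0.41 to 0.0016. Fold changes that turned direction were of genes that were not called, and the cause was not tested. The following are log2 fold changes. With no low count filter EGLN1 had -0.00056. By limma voom ALDOC had -0.0030, PDK3 0.090 and CA9 -1.11. With the replicate block ALDOC had -0.034, PDK3 0.018 and CA9 -0.35. With the average linkage set as a term PFKP had -0.025, PKM 0.0073, LDHA 0.090, PDK3 0.081, HIF1A -0.094 and P4HA1 -0.13. In the first library set alone PFKL had -0.0052, ALDOA 0.045, PKM 0.00091, LDHA 0.12, SLC16A3 0.043, HIF1A -0.0996, ADM -0.014 and P4HA1 -0.16. In the second library set alone, with 1 mock library assumed to vary like the EDN1 overexpression libraries, GPI had -0.061, PFKP -0.10, ALDOC -0.18, PGK1 -0.017, PKM 0.0071, LDHA 0.025, PDK3 0.36, HIF1A -0.096 and P4HA1 -0.092. With the complete linkage set as a term HK1 had 0.29, ALDOC -0.13, TPI1 -0.020, PGAM1 -0.12, ENO1 0.0068, EGLN1 -0.045, ANGPTL4 0.48, NDRG1 0.064 and BNIP3L 0.14. Leaving out each library in turn gave these ranges: HK1 -0.43 to 0.15, GPI -0.072 to 0.096, PFKL -0.015 to 0.15, PFKP -0.12 to 0.24, ALDOC -0.17 to 0.22, TPI1 -0.041 to 0.098, PGK1 -0.011 to 0.072, PGAM1 -0.12 to 0.26, ENO1 -0.21 to 0.031, PKM -0.49 to 0.0023, LDHA -0.17 to 0.071, SLC16A1 -0.068 to 0.042, SLC16A3 -0.24 to 0.077, PDK3 -0.23 to 0.27, PFKFB3 -0.024 to 0.24, HIF1A -0.084 to 0.19, EGLN1 -0.060 to 0.086, ANGPTL4 -0.85 to 0.18, CA9 -1.09 to 0.81, NDRG1 -0.62 to 0.017, BNIP3L -0.61 to 0.0016, KDM3A -0.018 to 0.088 and P4HA1 -0.31 to 0.17. Depth limits LDHB and EGLN3, which were at or near the floor of 3 counts, and PFKM, which had 6 to 20 counts.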
